A study of Bos grunniens with 3 samples.

Results

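*KRT1*, *KRT10*, *KRT2* and *KRT77* are the keratins of the suprabasal epidermis considered here, and they were described across 3 single-cell libraries of Tianzhu white yak (*Bos grunniens*) scapula skin. They were taken by symbol from the gene list deposited with the counts, in which these 4 genes are 4 of 26924, as ENSBGRG00000001328 (*KRT1*), ENSBGRG00000016347 (*KRT10*), ENSBGRG00000001308 (*KRT2*) and ENSBGRG00000001344 (*KRT77*). One library each came from skin in anagen, the growth phase of the hair follicle, in catagen, its regression, and in telogen, its rest. An age of 2 years is recorded for all 3 libraries, and no treatment is named. The study's methods give 3 healthy yaks, with skin taken in anagen and catagen, without saying which animal gave which library. Those methods do not describe telogen skin, so they do not give the number or health of the animals behind the telogen library. The protocol text deposited with the catagen library names anagen, so its stage is taken from its title and stage label. Hair follicles were drawn from enzyme-treated skin strips and broken up with trypsin, and the share of surface epidermis that each suspension carried is not given. The kit label is 10x Genomics 3′ chemistry, which counts 1 unique molecular identifier (UMI) for each captured transcript molecule, so levels are UMI counts and are not divided by gene length.

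Keratins are the intermediate filament proteins of epithelial cells, and each filament pairs a type I with a type II keratin. Basal keratinocytes, which lie on the basement membrane and divide, make *KRT5* and *KRT14*. When such a cell leaves the basal layer it switches to *KRT1*, of type II, and *KRT10*, of type I. *KRT2* is a type II keratin of the upper spinous and granular layers, and *KRT77* is a type II keratin related to *KRT1* that is known from epidermis and from sweat gland ducts. In the RefSeq yak assembly Bosgru_T2T1.0, which is not the build of the counts and is used here for gene order alone, *KRT77*, *KRT1* and *KRT2* are neighbours on chromosome 5. *KRT10* lies between *KRT12* and *KRT28* on chromosome 19.

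The files held 12000 anagen, 12124 catagen and 14573 telogen cells, with 82862998, 51647865 and 103511775 UMIs. Removal of cells with fewer than 200 genes left 11987, 12062 and 14502 cells, with medians of 5256, 3350 and 5583.5 UMIs. The smallest kept cell had 2404 UMIs in anagen but 500 in catagen and 500 in telogen. Shares of cells are therefore compared between libraries with unlike depth floors. Between 40 and 49 cell barcodes occurred in each pair of libraries. Each stage is a single unreplicated library, so nothing was tested: the 95% intervals given below cover counting error only, and stage, animal, library and software version cannot be told apart.

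*KRT1* and *KRT10* were among the most abundant transcripts of the cell suspension in each library. In counts per 1000000 UMIs (CPM), *KRT1* reached 4594 (95% Poisson interval 4579 to 4608) in anagen, 4417 (4399 to 4435) in catagen and 6185 (6170 to 6200) in telogen. It ranked 50th, 41st and 39th among the 17997, 17940 and 17796 genes with a UMI. *KRT10* reached 3726 CPM (3713 to 3739) in anagen, 4917 (4898 to 4936) in catagen and 4783 (4770 to 4797) in telogen, at ranks 65, 29 and 54. *KRT1* was thus highest in telogen. *KRT10* was about as high in telogen as in catagen, and the direction of that small difference turned under 3 alternatives: the log2 ratio of telogen over catagen was −0.04, but 0.087 without the 5% of cells with the most UMIs, 0.46 with size factors and 0.16 as a mean over cells.

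*KRT2* and *KRT77* were far rarer and ran in opposite directions between catagen and telogen. *KRT2* had 385 UMIs in anagen (4.65 CPM, 4.20 to 5.14), 434 in catagen (8.42 CPM, 7.65 to 9.25) and 2776 in telogen (26.8 CPM, 25.8 to 27.9). *KRT77* had 2334 UMIs in anagen (28.2 CPM, 27.1 to 29.3), 5007 in catagen (97.2 CPM, 94.5 to 99.9) and 1004 in telogen (9.71 CPM, 9.12 to 10.3). *KRT2* was therefore highest and *KRT77* lowest in the telogen library. Of the UMIs of the 3 type II members, *KRT77* supplied 0.609% in anagen, 2.15% in catagen and 0.156% in telogen, and *KRT2* supplied 0.100%, 0.186% and 0.431%.

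**Figure D1:**
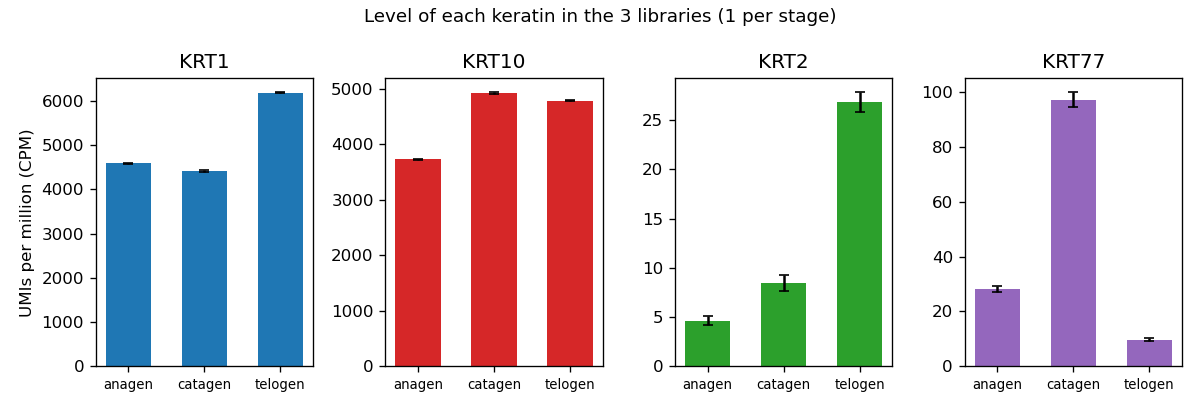
Level of each keratin in the anagen, catagen and telogen libraries, in CPM on linear axes that differ between panels, with 95% Poisson intervals for counting error as black bars. *KRT1* and *KRT10* stay within 3726 and 6185 CPM, while *KRT77* is highest in catagen at 97.2 CPM and *KRT2* in telogen at 26.8 CPM.

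Between libraries, the rarer members differed by more than the abundant pair. *KRT77* was 3.45-fold higher in catagen than in anagen (log2 ratio 1.79, 95% interval 1.71 to 1.86), 2.90-fold lower in telogen than in anagen (log2 −1.54, −1.65 to −1.43) and 10.0-fold lower in telogen than in catagen (log2 −3.32, −3.42 to −3.23). *KRT2* was 1.81-fold higher in catagen than in anagen (log2 0.86, 0.66 to 1.06), 5.77-fold higher in telogen than in anagen (log2 2.53, 2.38 to 2.69) and 3.19-fold higher in telogen than in catagen (log2 1.67, 1.53 to 1.82). The *KRT1* log2 ratios were −0.06 for catagen over anagen, 0.43 for telogen over anagen and 0.49 for telogen over catagen. The corresponding *KRT10* log2 ratios were 0.40, 0.36 and −0.04.

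The total of the 4 keratins was 8352 CPM in anagen, 9440 in catagen and 11005 in telogen. Its log2 ratio was 0.18 for catagen over anagen, 0.40 for telogen over anagen and 0.22 for telogen over catagen. These ratios share a scale with every other gene, and the median log2 ratio of all genes with UMIs in both libraries was 0.28, −0.26 and −0.51 in the same order. After median-of-ratios size factors, which remove such a shift, the log2 ratio of the total was −0.08, 0.64 and 0.72. The direction between catagen and anagen thus depended on the scaling, whereas those of *KRT2* and *KRT77* did not: with size factors *KRT77* stood at 1.53, −1.29 and −2.82, and *KRT2* at 0.60, 2.78 and 2.17.

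The UMIs of the rare members came from very few cells. In anagen, catagen and telogen, 9, 10 and 26 cells held 50% of all *KRT2* UMIs, with up to 43, 37 and 208 *KRT2* UMIs in a single cell. For *KRT77* the number of such cells was 111, 74 and 87, and for *KRT1* it was 621, 468 and 541. *KRT2* was detected at all in 88, 100 and 438 cells, and the counting intervals above do not cover which cells were sampled. Without the 5% of cells with the most UMIs, the log2 ratio of *KRT2* in catagen over anagen was 0.30.

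Whether a cell carries a UMI of a gene depends on depth, so each cell was thinned to 1500 UMIs before shares were compared, which left out 2263 catagen and 2932 telogen cells and no anagen cell. After thinning, *KRT1* was detected in 55.7% of anagen, 38.0% of catagen and 54.6% of telogen cells, and *KRT10* in 56.5%, 41.4% and 57.4%. Unthinned, the *KRT1* shares were 74.9%, 48.3% and 79.7%, and those of *KRT10* were 75.3%, 53.4% and 80.1%. *KRT2* was detected in 0.325%, 0.429% and 1.35% of thinned cells, and *KRT77* in 2.62%, 4.10% and 1.06%. The order of the libraries by share was the same as by CPM for *KRT2* and for *KRT77*, but not for *KRT1* or *KRT10*, so no order is read from the shares of that pair.

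A UMI of *KRT1* or *KRT10* is not by itself a sign of a suprabasal cell in these suspensions. Among thinned cells with at least 3 of 7 endothelial markers, a cell type that should lack both keratins, *KRT1* was detected in 13 of 41 anagen cells (31.7%), 1 of 12 catagen cells (8.33%) and 13 of 27 telogen cells (48.1%). For *KRT10* these counts were 16 (39.0%), 5 (41.7%) and 8 (29.6%). The median depth before thinning was 4273, 2704.5 and 4833 UMIs in these cells, and 5256, 4008 and 6810.5 in all thinned cells. With a minimum of 5 UMIs in a thinned cell, the endothelial marker cells with *KRT1* numbered 2, 0 and 2, while 28.8%, 21.1% and 29.2% of all thinned cells met it. No endothelial marker cell had a *KRT2* UMI, and *KRT77* was detected in 1 of the 12 thinned catagen cells (8.33%) and in none of the 41 anagen or 27 telogen cells.

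*KRT1* and *KRT10* were found in the same cells. At 1500 UMIs per cell, 44.7% of anagen cells (43.8 to 45.6, Clopper-Pearson), 28.8% of catagen cells (27.9 to 29.7) and 42.9% of telogen cells (42.0 to 43.9) carried both. Among cells with *KRT1*, 80.2%, 75.8% and 78.7% also had *KRT10*, against 26.6%, 20.2% and 31.8% of cells without *KRT1*. Both were present in 14.6%, 8.33% and 22.2% of the endothelial marker cells. When 5 UMIs of each were required, 23.1%, 19.0% and 24.2% of cells carried both, and *KRT10* was present in 80%, 90.1% and 82.9% of *KRT1* cells against 6.72%, 4.79% and 9.13% of the others.

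Most cells with a rare member also had *KRT1*, and most also had *KRT10*. *KRT1* was detected in 38 of the 39 thinned anagen cells with *KRT2* (97.4%), in 34 of 42 in catagen (81.0%) and in 146 of 156 in telogen (93.6%). It was also detected in 92.7% of the 314 anagen cells, 90.0% of the 402 catagen cells and 87.8% of the 123 telogen cells with *KRT77*. *KRT10* was detected in 94.9%, 78.6% and 92.3% of the *KRT2* cells and in 94.3%, 92.3% and 96.7% of the *KRT77* cells. Conversely, *KRT2* was detected in 0.569%, 0.912% and 2.31% and *KRT77* in 4.35%, 9.71% and 1.71% of the cells with *KRT1*.

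Within cells, the amounts of *KRT1* and *KRT10* went together but their balance varied. Across all thinned cells, Pearson's r of log2(UMI + 1) was 0.848 in 11987 anagen, 0.883 in 9799 catagen and 0.829 in 11570 telogen cells, which share library and depth. Of the cells with at least 20 UMIs of the pair (2237, 1743 and 2425), 67.9% in anagen, 47.6% in catagen and 70.7% in telogen had more *KRT1* than *KRT10*. The median log2 of *KRT1* over *KRT10* was 0.35, 0.00 and 0.47 in these cells, and the 5th and 95th percentiles were −0.99 and 1.71 in anagen, −1.88 and 1.31 in catagen, and −1.40 and 1.99 in telogen. Over whole libraries, the ratio of *KRT1* to *KRT10* UMIs was 1.23, 0.898 and 1.29. The catagen library was thus the only 1 of these 3 libraries with fewer *KRT1* than *KRT10* UMIs.

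Cells whose UMIs were more than 4% *KRT1* and *KRT10* numbered 437 in anagen (3.65%), 720 in catagen (5.97%) and 881 in telogen (6.08%). *KRT14*, the type I keratin of basal cells, stood at 1904 CPM in these anagen cells and 1968 in the catagen cells, but at 15364 CPM in the telogen cells. In cells with less than 0.1% of the pair, *KRT14* was 12244, 13162.5 and 22226 CPM. In the telogen library *KRT14* therefore remained abundant in cells that were rich in *KRT1* and *KRT10*, and free RNA in the suspension was not tested as a part of this.

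Each library was clustered alone, with the 4 keratins left out of the genes used, into 25 anagen, 22 catagen and 20 telogen clusters. Clusters were called suprabasal-like or basal-like from fixed markers that hold none of the 4 keratins. Suprabasal-like clusters held 1657 anagen cells (13.8%), 1627 catagen cells (13.5%) and 2089 telogen cells (14.4%). They contained 67.4%, 79.1% and 66.9% of all *KRT1* UMIs, 64.7%, 77.8% and 61.0% of *KRT10*, 89.1%, 90.3% and 81.6% of *KRT2*, and 71.1%, 86.8% and 70.5% of *KRT77*. Upper follicle-like clusters, whose markers include *KRT79* and *KRT17*, held a further 15.7% of anagen and 11.1% of catagen *KRT1* UMIs, and in telogen 7 unnamed clusters with 50% of the cells held 26.4%. The telogen shares depended on the clustering. At resolution 1.2 the suprabasal-like clusters of telogen held 38.9% of *KRT1*, 34.9% of *KRT10*, 58.1% of *KRT2* and 18.5% of *KRT77* UMIs. At resolution 0.4 they held 48.5% of *KRT10* and 17.6% of *KRT77*, and with the keratins kept among the clustering genes 49.4% and 19.3%. The *KRT77* share as first given rested on cluster 9, which also had raised upper follicle markers. In anagen and catagen the suprabasal-like clusters held between 63.6% and 92.7% of each member under the clusterings tried.

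*KRT1* stood at 17477 CPM in suprabasal-like and 2732 CPM in basal-like cells of anagen. These values were 16763 and 533 CPM in catagen and 19970 and 857 CPM in telogen. *KRT10* stood at 13593 and 2352 CPM in anagen, 18360 and 556 CPM in catagen and 14078 and 631 CPM in telogen. The log2 ratio of the 4 keratins together in suprabasal-like over basal-like cells was 2.62 in anagen, 5.02 in catagen and 4.52 in telogen. The anagen value was 3.68 at resolution 1.2, 3.27 with 15 components and 3.11 at resolution 0.4. In anagen, 1 of the 2 basal-like clusters, cluster 6, was led by *SCUBE2* and *POSTN* and had 4125 CPM of *KRT1*. The other, cluster 5, had 1874 CPM. The basal markers raised in cluster 6 did not include *KRT5* or *KRT14*. Both were raised in the largest anagen cluster, cluster 0 of 1656 cells, which had 838 CPM of *KRT1* but was left unnamed. Cluster 0 is thus outside the anagen ratio, and the anagen basal-like level depends on which clusters bear that name. No *KRT1* level was at 0 in any cluster: the lowest were 118, 108 and 421 CPM.

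The single cluster with the highest level was suprabasal-like for *KRT1* and for *KRT10* in all 3 libraries. In telogen the next was the unnamed cluster 4 for both. This ranking depended on the clustering. The best suprabasal-like cluster was at place 2 for *KRT1* in telogen at resolution 1.2. For *KRT10* it was at place 2 in catagen with the keratins kept among the clustering genes. In anagen, clusters 2 (led by *SLC47A2* and *S100A7*) and 14 (*SPINK7* and *LYPD2*) had 17807 and 17737 CPM of *KRT1*, with counting intervals that overlap, and 13764 and 14297 CPM of *KRT10*. In catagen, cluster 1 (*SNCB* and *FMO5*) had 18456 CPM of *KRT1* and 16708 of *KRT10*, whereas cluster 14 (*CNFN* and *SERPINA12*) had 11568 of *KRT1* and 23426 of *KRT10*. In telogen, cluster 3 (*S100A7* and *S100A12*) had 25791 CPM of *KRT1* and 16528 of *KRT10*, and cluster 9 (*KLK5* and *KRT23*) had 7875 and 8988. Other clusters with much *KRT1* included upper follicle-like ones in anagen (cluster 1, 6616 CPM) and catagen (cluster 4, 5124 CPM). Some were unnamed with low depth, such as catagen cluster 8 (10377 CPM, median 793 UMIs) and telogen cluster 4 (9263 CPM, median 1563 UMIs). The unnamed telogen cluster 2 (6482 CPM), led by *KRT17*, *NT5E* and *KRT79*, was deep, with a median of 8174.5 UMIs. It held 17.5% of telogen *KRT1* UMIs.

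**Figure D2:**
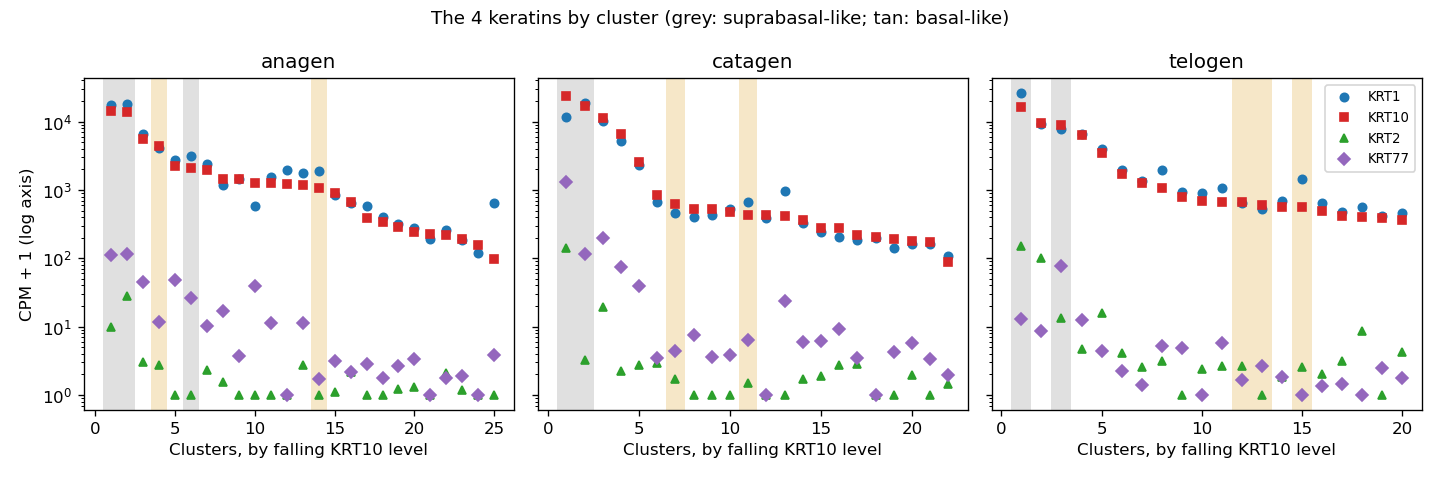
The 4 keratins in each cluster of the anagen, catagen and telogen libraries, as CPM + 1 on a log axis, with clusters ordered by falling *KRT10* level and grey and tan bands for suprabasal-like and basal-like clusters. *KRT1* and *KRT10* are lower together from left to right, and *KRT77* reaches 1294 CPM in 1 catagen cluster.

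*KRT77* was concentrated in a small cluster of catagen. Cluster 14, of 307 cells, had 1294 CPM (1251 to 1339) and held 3418 of the 5007 *KRT77* UMIs of that library. Outside the cluster with the most *KRT77* UMIs of each library, the level was 32.5 CPM in catagen, 13.2 CPM in anagen (outside cluster 2) and 4.87 CPM in telogen (outside cluster 9), so the order of the libraries was the same without those clusters. In anagen the highest *KRT77* levels were 116 CPM in cluster 2 and 110 in cluster 14, whose intervals overlap, and in telogen the highest was 76.7 CPM in cluster 9 against 12.03 in cluster 3. The catagen cluster 14 and the telogen cluster 9 were alike in 2 of their leading genes, *CNFN*, which encodes a cornified envelope protein, and *KRT23*.

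*KRT2* peaked in the same catagen cluster but in another telogen cluster. In catagen, cluster 14 had 142 CPM (128 to 157) of *KRT2*, the unnamed cluster 8 had 18.2 and cluster 1 had 2.22. In telogen, *KRT2* stood at 151 CPM (144 to 157) in cluster 3, where *KRT77* was low, and at 12.2 in cluster 9, where *KRT77* was highest. In anagen, cluster 2 had 26.7 CPM (23.9 to 29.8) and cluster 14 had 8.79. No *KRT2* UMI was counted in 12 of 25 anagen, 8 of 22 catagen and 3 of 20 telogen clusters, and no *KRT77* UMI in 3, 2 and 3.

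The order in which the 4 keratins appear was followed in the basal-like and suprabasal-like cells, which were sorted by the share of their UMIs from 5 suprabasal markers (*SBSN*, *KRTDAP*, *DSG1*, *DSC1* and *SPINK5*) and cut into 10 equal bins. Depth also grew along this order, from a median of 5397 to 9212 UMIs in anagen, 2883 to 7187.5 in catagen and 5963 to 9367 in telogen. The order mixes clusters, among them telogen cluster 9 with its raised upper follicle markers, so a bin need not be a step of differentiation. *KRT1* and *KRT10* were higher in the early part of the order than the rare members were. In anagen, *KRT1* stood at 332 CPM in bin 1, 4472 in bin 4, 10879 in bin 5 and 17934 in bin 7, and *KRT10* at 291, 3503, 7145 and 12829 in the same bins. *KRT77* stayed at or below 2.95 CPM up to bin 6 and stood at 29.5 in bin 7, 198 in bin 9 and 251 in bin 10. *KRT2* stood at 12.5 CPM in bin 7 and 46.6 in bin 10. At bin 6, *KRT1* was thus near its highest level in anagen while *KRT2* and *KRT77* were still near 0.

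The catagen cells gave a similar sequence, with the rare members at their highest in the last bin. *KRT1* stood at 213 CPM in bin 1, 8751 in bin 7 and 22697 in bin 9, and *KRT10* at 252, 6481 and 21538. *KRT77* stood at 5.41 CPM in bin 7, 25.5 in bin 8, 183 in bin 9 and 1096 in bin 10, and *KRT2* at 0.451, 0.798, 12.3 and 104. From bin 9 to bin 10 *KRT1* was lower, at 13911 CPM, and *KRT10* was higher, at 23816 CPM.

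In telogen *KRT2* stood above *KRT77* in bins 6 to 10, whereas in anagen and catagen *KRT77* stood above *KRT2* in bins 7 to 10. *KRT2* stood at 5.87 CPM in bin 6, 37.6 in bin 7, 151 in bin 9 and 195 in bin 10. *KRT77* stood at 0.587, 0.439, 29.2 and 107 in the same bins. In bin 7 these were 171 *KRT2* UMIs against 2 *KRT77* UMIs. *KRT14* was at 37896 CPM in bin 6 and 31004 in bin 7 of telogen, while in anagen it was at 8479 and 3434 in these bins. Similar *KRT1* levels in bin 7 (17934 CPM in anagen and 18652 in telogen) thus went with different *KRT14* levels. Bins of the same number are not at like positions, however. The suprabasal list held 1.27% of UMIs in bin 7 of anagen and 0.871% in telogen. At 0.845% of the list, anagen bin 6 had 8479 CPM of *KRT14* against 31004 in telogen bin 7.

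**Figure D3:**
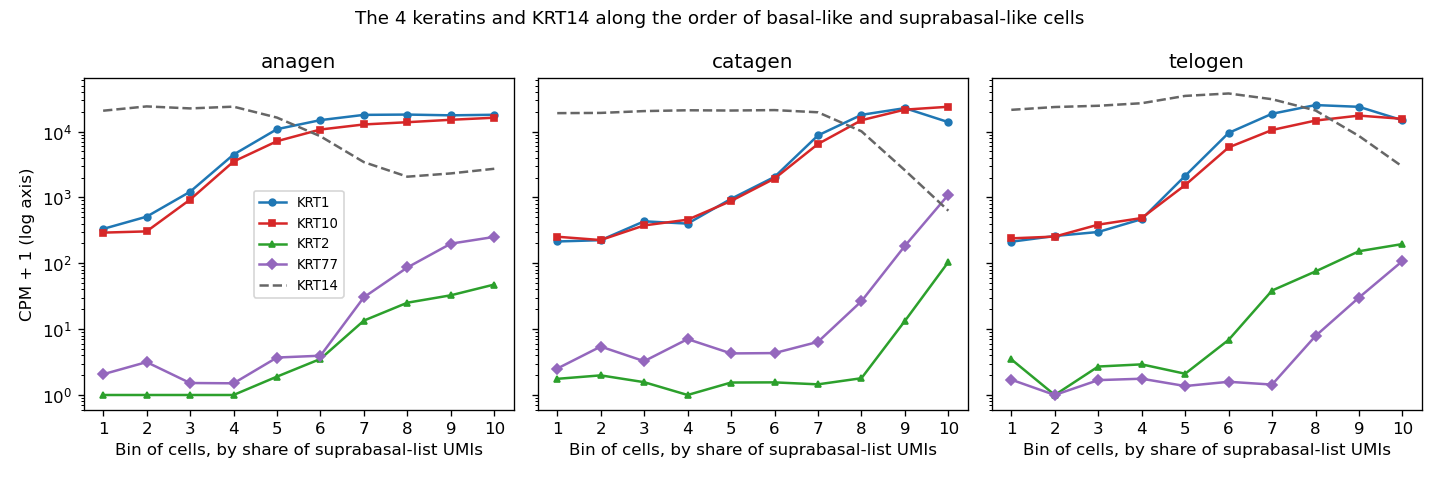
The 4 keratins and *KRT14* in 10 bins of basal-like and suprabasal-like cells sorted by the share of suprabasal-list UMIs, as CPM + 1 on a log axis, 1 panel per library. *KRT1* and *KRT10* are high from the middle bins, *KRT77* and *KRT2* only in the last bins, and in telogen *KRT2* stands above *KRT77* in these bins.

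The balance of the pair differed in the last bins of the order. The ratio of *KRT1* to *KRT10* UMIs was 1.40 in bin 7 and 1.11 in bin 10 of anagen, 1.35 and 0.584 in catagen, and 1.76 and 0.950 in telogen. From bin 8 to bin 10 the log2 ratio was lower by a difference of −0.24 in anagen (−0.26 to −0.21), −1.05 in catagen (−1.07 to −1.02) and −0.85 in telogen (−0.87 to −0.83). The comparison of these bins was chosen after the values had been seen. When cells were sorted by the suprabasal less the basal list, the differences were −0.09, −0.84 and −0.37. The ratio of *KRT1* to *KRT10* UMIs also differed between suprabasal-like clusters. It was 0.494 in cluster 14 and 1.10 in cluster 1 of catagen, and 0.876 in cluster 9 and 1.56 in cluster 3 of telogen. In anagen, clusters 2, 14 and 20 had 1.29, 1.24 and 1.49. Cluster 20, of 56 cells, had only 3129 CPM of *KRT1*, with 31395 CPM of *KRT14* and raised sebaceous markers, so its suprabasal-like name is uncertain. Whether the mix of clusters in the last bins accounts for the lower ratio was not tested.

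**Figure D4:**
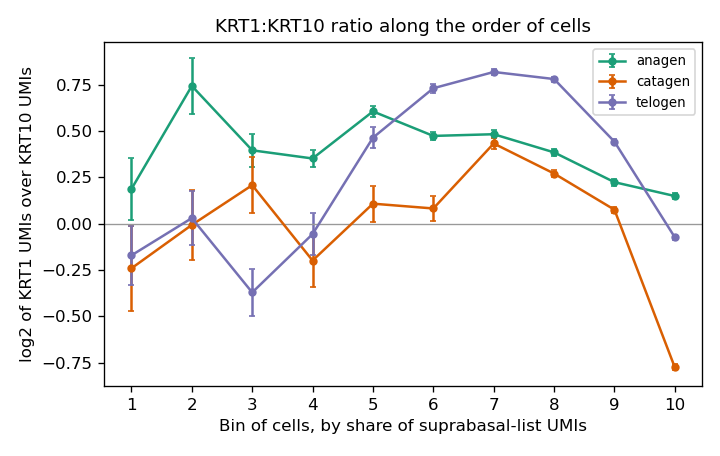
Log2 of *KRT1* over *KRT10* UMIs in the 10 bins of each library, with 95% counting intervals as bars and a grey line where the UMIs of the pair are equal. In the last bin the ratio of UMIs is 1.11 in anagen, 0.584 in catagen and 0.950 in telogen, each below its value in bin 7.

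*KRT2* and *KRT77* were shared by cells to different extents. In unthinned cells with at least 2 UMIs required, anagen had 47 cells with *KRT2* and 388 with *KRT77*, of which 31 had both. Catagen had 40 and 480 with 34 in common, and telogen 201 and 185 with 18 in common. Of the *KRT2* cells, 66.0% (50.7 to 79.1) in anagen, 85.0% (70.2 to 94.3) in catagen and 8.96% (5.39 to 13.8) in telogen also had *KRT77*. Of the *KRT77* cells, 7.99%, 7.08% and 9.73% also had *KRT2*. Over all kept cells, the shares with at least 2 *KRT77* UMIs were 3.24%, 3.98% and 1.28%, and those with *KRT2* were 0.392%, 0.332% and 1.39%. In each library, each overlap was thus above the share over all cells. The share of *KRT2* cells with *KRT77* was lowest in telogen, as was the total *KRT77* level. The intervals cover counting error within 1 library and do not compare stages. Without thinning, these counts and shares also depend on depth, whose median was 5256, 3350 and 5583.5 UMIs over all kept cells.

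In telogen, most cells with *KRT2* lay in another cluster than most cells with *KRT77*, though both clusters held some of each. Of the 201 *KRT2* cells, 136 (67.7%) were in cluster 3 and 8 (3.98%) in cluster 9, while of the 185 *KRT77* cells, 28 (15.1%) were in cluster 3 and 102 (55.1%) in cluster 9. The unnamed cluster 4 held 35 *KRT2* cells. A further 41 *KRT77* cells were in cluster 2, which was led by *KRT17*, *NT5E* and *KRT79* and left unnamed. In catagen, 35 of 40 *KRT2* cells and 216 of 480 *KRT77* cells were in cluster 14. In anagen, cluster 2 held 38 of 47 *KRT2* cells and 192 of 388 *KRT77* cells, and 92 *KRT77* cells were in the upper follicle-like cluster 1.

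**Figure D5:**
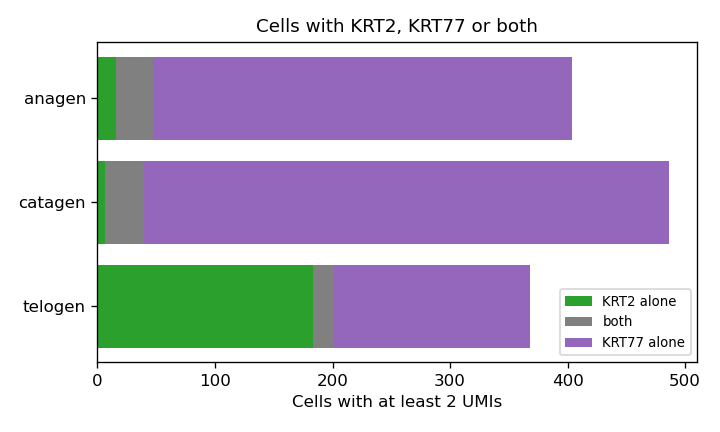
Number of unthinned cells with at least 2 UMIs of *KRT2* alone, of *KRT77* alone or of both, in the anagen, catagen and telogen libraries. In anagen and catagen most *KRT2* cells also had *KRT77* (31 of 47 and 34 of 40), and in telogen 18 of 201 did.

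Telogen is the library with enough cells of each kind to compare, with 167 cells that had *KRT77* without *KRT2* and 183 with *KRT2* without *KRT77*, at median depths of 12063 and 10674 UMIs. Among 52 differentiation and keratin genes from fixed lists with at least 10 CPM in either kind, those with the highest ratio were *KRT79*, a keratin of the upper follicle, with 917 CPM in *KRT77* cells against 41.9 in *KRT2* cells, *KRT23* (226 against 19.1), and the kallikrein proteases *KLK10* (447 against 41.5), *KLK7* (4814 against 499) and *KLK5* (367 against 42.8). Those with the lowest ratio were *KRT14* (6727 against 24256.5), *CERS3*, a ceramide synthase of the skin barrier (74.0 against 164), the desmosomal *PKP1* (530 against 935) and *DSC1* (184 against 319), and *KRT5* (468 against 708). *KRT79* stood at 120 CPM in the anagen and 149 CPM in the catagen cells with *KRT77* alone, and no *KRT79* UMI was counted in the cells with *KRT2* alone. Those were 16 and 6 cells, too few for a comparison of levels. *KRT79* also differed between the clusters that held *KRT77*. In anagen it stood at 4.88 and 22.4 CPM in clusters 2 and 14, where *KRT77* was highest, and at 211 in the upper follicle-like cluster 1. In catagen it stood at 309 CPM in cluster 14, where *KRT77* was highest, 339 in the upper follicle-like cluster 4 and 1.11 in cluster 1.

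Unthinned cells with at least 2 UMIs of both *KRT1* and *KRT10* numbered 5790 in anagen, 3253 in catagen and 6996 in telogen. They were compared with cells that had none of either (1504, 4139 and 1108). Their median depth was 5610.5 UMIs against 4813 in anagen, 4848 against 2610 in catagen and 6370 against 4434.5 in telogen. Of the unthinned endothelial marker cells, 13 of 41 in anagen, 1 of 13 in catagen and 12 of 28 in telogen had at least 2 *KRT1* UMIs. For *KRT10* these counts were 13, 4 and 8. The split is therefore not 1 of suprabasal against other cells. Of 40 epidermal differentiation genes with at least 10 CPM in either kind of cell of every library, 12 were at least 2-fold higher in the pair cells of all 3 libraries. Of the 40, 2 were at least 2-fold lower. Over all 5054 genes compared these shares were 1.70% and 2.67%. A gene can meet this level through the kind of cell where it is higher: *PADI1* stood at 6.57 CPM over the whole telogen library. The highest ratios were those of *KRTDAP* (log2 2.92, 3.24 and 2.61), *DSC1* (2.12, 3.34 and 3.05), *CERS3* (2.34, 3.15 and 2.34), *CNFN* (2.71, 3.05 and 0.84) and *ABCA12*, a lipid transporter of the skin barrier (1.86, 2.12 and 1.89). The lowest were those of *PADI1*, a peptidylarginine deiminase (−1.42, −3.64 and −1.24), the Notch ligand *JAG2* (−1.43, −2.29 and −1.30) and *KLK10* (−0.62, −1.96 and −1.17).

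Among the other keratins, *KRT79* was higher in the cells with the pair (log2 2.49, 4.36 and 4.61) and *KRT7*, a keratin of simple and glandular epithelia, was lower (−1.90, −2.52 and −1.87). In the clusters with the highest *KRT1* level, however, *KRT79* stood at 4.88 (anagen cluster 2), 1.11 (catagen cluster 1) and 10.7 CPM (telogen cluster 3). It stood at 211 and 339 CPM in upper follicle-like clusters (anagen 1, catagen 4) and 266 in the unnamed telogen cluster 2. Suprabasal-like clusters with much *KRT79* were catagen cluster 14 (309 CPM) and telogen cluster 9 (817 CPM). *KRT14* stood at −0.54, −0.47 and −0.15, and *KRT5* at −0.42, −0.60 and −0.13. The median log2 ratio was 0.88, 1.03 and 0.80 over the 40 differentiation genes and 0.10, −0.35 and 0.13 over the 8 keratins.

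The genes most like each member across clusters were sought among 1088 genes with at least 50 CPM in every library, by the mean over the libraries of Pearson's r of log2(CPM + 1) across 25, 22 and 20 clusters. *KRT1* and *KRT10* were most like each other, with r of 0.943, 0.982 and 0.977. Next to *KRT1* stood *S100A7*, an antimicrobial protein of keratinocytes (mean r 0.857), *KRTDAP* (0.832), *EXPH5* (0.818), *FMO5* (0.809) and *DSC1* (0.801). Next to *KRT10* stood *FMO5* (0.818), *S100A7* (0.807), *KRTDAP* (0.806), *DSC1* (0.794) and *F3*, tissue factor (0.762).

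For *KRT2* the leading genes were *S100A7* (0.723), *DSC1* (0.674), *FMO5* (0.648), *IFI30* (0.634) and *F3* (0.631). For *KRT77* they were *KRTDAP* (0.777), *S100A7* (0.753), the growth factor *AREG* (0.685), *ACSF2* (0.684) and *KLF3* (0.679). *KRT77* was more like *KRT10* (0.834) than like *KRT2* (0.645), and r between *KRT2* and *KRT77* was 0.618 in anagen, 0.814 in catagen and 0.502 in telogen. Clusters of a library share its depth and free RNA, and *KRTDAP* and *DSC1* are also among the markers used for names. *KRT2* had no UMI in 12 of 25 anagen, 8 of 22 catagen and 3 of 20 telogen clusters. Of its anagen UMIs, 83.9% were in cluster 2, so r values with *KRT2* rest on few clusters and few UMIs.

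The wider differentiation programme was compared over whole libraries with a list of 89 symbols, 62 of which have a row. In bulk sums of this kind, fewer cells of a type and less RNA per cell cannot be told apart. Between catagen and anagen, 6 of 44 list genes with at least 10 CPM were at least 2-fold higher in catagen and 3 were at least 2-fold lower, against 4.41% and 3.47% of all genes. The median log2 ratio of the list was 0.14, beside 0.05 for all genes tested. With size factors the balance turned to 2 higher and 5 lower of 43, against 1.94% and 8.23% of all genes. The highest ratios were those of *SCEL*, a cornified envelope precursor (97.7 CPM in catagen, 35.9 in anagen), *CNFN* (26.6 and 10.9), *SERPINB12* (10.9 and 4.31), the protease inhibitor *SPINK5* (1593 and 769) and *DSC1* (137 and 67.8). The lowest were those of *KLK5* (5.26 and 45.4), the water and glycerol channel *AQP3* (516 and 2154) and the transcription factor *PRDM1* (29.1 and 61.0).

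In telogen over anagen, 3 of 43 list genes were higher and 6 lower, against 3.0% and 7.83% of all genes, with medians of −0.31 for the list and −0.17 for all. *CNFN* (37.1 CPM in telogen), *KLK7* (838 against 389) and *PERP*, a desmosomal protein (1141 against 556), had the highest ratios. *PRDM1* (15.8 CPM in telogen), *KLF4*, a transcription factor of barrier formation (235 against 567), and *UGCG*, a glucosylceramide synthase (52.7 against 127), had the lowest. In telogen over catagen, 4 of 44 were higher and 11 lower, against 4.10% and 12%, with medians of −0.63 and −0.24. There *KLK5* was 9.90-fold and *KLK7* 4.25-fold higher, while the envelope proteins *PPL* (17.2 against 49.5 CPM) and *EVPL* (11.8 against 32.2) were among the lowest. With size factors the list counts for telogen over catagen were 5 higher and 1 lower of 43, and over all genes 16.1% were higher and 2.76% lower, so the balance of directions depended on the scaling.

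Of 23 other epithelial keratins, 17 have a row and 8 had at least 10 CPM. *KRT14* stood at 10602 CPM in anagen, 11744 in catagen and 20286 in telogen, and its type II partner *KRT5* at 827, 1447 and 1524. *KRT15*, a keratin of basal and bulge cells, stood at 294, 678 and 281 CPM, *KRT23* at 25.2, 61.1 and 48.7, *KRT80* at 23.9, 72.4 and 34.0, and *KRT79* at 37.3, 54.2 and 115. In catagen over anagen, 3 of the 8 (*KRT15*, *KRT23* and *KRT80*) were at least 2-fold higher and 0 lower, against 4.41% and 3.47% of all genes. With size factors 2 were higher and 0 lower, against 1.94% and 8.23% of all genes. In telogen over anagen, 1 (*KRT79*) was higher and 0 lower, against 3.0% and 7.83%. With size factors 4 were higher and 0 lower, against 5.52% and 4.38%. In telogen over catagen, 1 (*KRT79*) was higher and 2 (*KRT15* and *KRT80*) lower, against 4.10% and 12%. With size factors 3 were higher and 0 lower, against 16.1% and 2.76%. None of these 8 keratins had a telogen over catagen ratio as low as that of *KRT77*, which was 10.0-fold lower.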

How the data were processed

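Single-cell RNA was counted in 3 libraries, 1 each of anagen, catagen and telogen skin, grouped by title and stage label. The authors deposited whole-number UMI counts per gene and cell barcode, not normalized. File headers name Cell Ranger 4.0.0 (anagen), 3.1.0 (catagen) and 6.0.2 (telogen), whereas the submitters' processing notes name 2.1.1. The genome build is not given in the sources used here.

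Cells with at least 200 genes were kept, and doublets and cells with shared barcodes were left in. CPM carry exact Poisson intervals, shares Clopper-Pearson intervals and ratios exact conditional binomial intervals, all at 95%. Cells were thinned to 1500 UMIs with a fixed seed. Each library was clustered in Python 3.11.15 (log-normalized counts, 2000 variable genes without the 4 keratins, 30 principal components, 20 neighbours, leidenalg 0.10.2 at resolution 0.8). A name needed at least 3 markers that were 1.5-fold higher than in the other cells with 10 CPM added, and no other class could have as many of the 10 leading genes unless none had any. These limits were chosen after clusters had been seen. The keratins and lists were chosen with earlier results of these data known. List genes named as examples are among the 5 highest or 5 lowest ratios of a comparison, and the genes most alike are the 5 with the highest mean r. Clusters and bins are described by genes chosen after their values were seen. The functions were tested on simulated data. Alternatives were other cell filters, scalings, depths, clusterings and orders.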

Additional observations from a re-analysis of the deposited data

How the results depend on the processing

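No paired analysis was possible because the labels give no replicate numbers and each stage has 1 library, which also cannot be left out. In the order catagen over anagen, telogen over anagen and telogen over catagen, the log2 ratio of the summed keratins (0.18, 0.40 and 0.22) was 0.34, 0.38 and 0.048 with at least 1000 genes per cell, 0.27, 0.42 and 0.15 with at least the smallest anagen UMI total, and 0.052, 0.38 and 0.33 without the 5% of cells with the most UMIs. It was −0.0057, 0.37 and 0.38 as a mean over cells and −0.077, 0.64 and 0.72 with size factors, both of which reversed the first ratio. Without shared barcodes, left out as a choice made after seeing the data, the telogen ratios were 0.39 and 0.21. *KRT1* in catagen over anagen turned to 0.085 with 1000 genes and 0.039 with the smallest anagen total. *KRT10* in telogen over catagen turned to 0.087 without the highest 5%, 0.46 with size factors and 0.16 as a mean over cells. *KRT2* and *KRT77* kept their directions between libraries under these alternatives. The cause of the changes was not tested.

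The share of cells with both *KRT1* and *KRT10*, in the order anagen, catagen and telogen, was 42.0%, 33.9% and 41.0% with 1000 genes, 34.3%, 23.5% and 33.3% from 2 UMIs, 23.1%, 19.0% and 24.2% from 5 UMIs, 62.8%, 36.0% and 67.5% without thinning, and 51.5%, 39.4% and 50.2% at 3000 UMIs. The log2 ratio of suprabasal-like over basal-like cells was 3.27, 4.86 and 4.77 with 15 components and 3.68, 5.24 and 5.03 at resolution 1.2. It was 3.11 and 5.01 in anagen and telogen at resolution 0.4, where catagen had no basal-like cluster and gave no value, and 2.52 and 5.38 in anagen and telogen with the keratins kept. From the first to the last of 5 bins the log2 ratio was 5.56, 6.50 and 6.23. For the differentiation list at 1.5-fold, 15 of 44 were higher and 5 lower in catagen over anagen, against 15.7% and 12.5% of all genes. In telogen over anagen 3 of 43 were higher and 15 lower, against 8.37% and 21.8% of all genes. In telogen over catagen 5 of 44 were higher and 25 lower, against 12.8% and 30.3%. With at least 50 CPM in either library, 3 of 26 were higher and 2 lower in catagen over anagen, against 3.30% and 3.95% of all genes. For telogen over anagen 2 of 24 were higher and 4 lower, against 3.95% and 8.23%. For telogen over catagen 4 of 26 were higher and 5 lower, against 6.65% and 10.6%. With size factors 2 of 43 were higher and 5 lower in catagen over anagen, against 1.94% and 8.23% of all genes. Telogen over anagen had 3 of 43 higher and 3 lower, against 5.52% and 4.38%. Telogen over catagen had 5 of 43 higher and 1 lower, against 16.1% and 2.76%.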
